A study of Mus musculus with 5 samples.

Results

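The Ms4a genes examined here were Ms4a1, Ms4a2, Ms4a3, Ms4a4b, Ms4a4c, Ms4a6b, Ms4a6c, Ms4a6d and Ms4a7, taken as every probe set of the array whose platform annotation gives 1 of these symbols and no other. They came to 18 probe sets of 45037, and to 9 genes of the 18193 named by a single symbol. Expression was measured on 5 Affymetrix whole-genome mouse arrays, 3 of common dendritic cell progenitors (CDP) and 2 of common myeloid progenitors (CMP). The cells were sorted from the marrow of wild-type C57BL/6 animals, with no treatment named in the labels, and no age or number of animals is given in the sources used here. CDP were sorted as lineage-negative, Sca-1-negative cells with intermediate c-Kit that carried CD34, Flk2 and CD115 and lacked CD16/32. CMP were sorted as lineage-negative, Sca-1-negative, CD11c-negative cells with high c-Kit that carried CD34 and Flk2 and lacked CD16/32 and CD115. Since nothing in the labels ties an array to its own animal or pool of animals, the p-values below measure only how these arrays vary, which may be technical variation.

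MS4A proteins are small membrane proteins that cross the lipid bilayer several times, and CD20, the product of Ms4a1, is the founding member of the family. Ms4a2 encodes the beta chain of the high-affinity IgE receptor of mast cells and basophils, and Ms4a3 marks progenitors of granulocytes and monocytes. The Ms4a4 and Ms4a6 genes have several near copies in the mouse, which are known from lymphocytes, monocytes and macrophages, whereas Ms4a7 is known from tissue macrophages. CDP give rise to dendritic cells, and CMP give rise to erythroid cells and megakaryocytes as well as granulocytes and monocytes. The series' title concerns IRF-8 and the choice between neutrophils and dendritic cells, and the comparison shows how members of this family differ between the dendritic and the earlier myeloid progenitor.

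The promoters of 5 of the 6 genes detected here are shown because the 2 pairs of near copies, Ms4a4b with Ms4a4c and Ms4a6b with Ms4a6c, share sequence before their starts. Each line gives the 250 bases before the transcription start of the RefSeq annotation on GRCm38.p6, 5′ to 3′ on the gene's strand, with capitals marking GGAAGT, the core letters of PU.1 sites, on either strand (ACTTCC on the other).
Ms4a4b, chr19:11443308-11443557, plus strand: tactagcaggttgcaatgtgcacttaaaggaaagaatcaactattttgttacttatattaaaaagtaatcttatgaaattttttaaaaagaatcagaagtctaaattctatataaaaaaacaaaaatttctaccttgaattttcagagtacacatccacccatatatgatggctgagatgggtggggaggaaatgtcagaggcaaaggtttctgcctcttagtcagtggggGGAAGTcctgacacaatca
Ms4a4c, chr19:11407411-11407660, plus strand: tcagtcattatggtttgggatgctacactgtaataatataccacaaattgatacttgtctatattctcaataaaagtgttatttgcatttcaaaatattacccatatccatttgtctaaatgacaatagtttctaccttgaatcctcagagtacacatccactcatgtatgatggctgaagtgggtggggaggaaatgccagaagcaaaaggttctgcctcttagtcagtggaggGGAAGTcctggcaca
Ms4a6b, chr19:11518309-11518558, plus strand: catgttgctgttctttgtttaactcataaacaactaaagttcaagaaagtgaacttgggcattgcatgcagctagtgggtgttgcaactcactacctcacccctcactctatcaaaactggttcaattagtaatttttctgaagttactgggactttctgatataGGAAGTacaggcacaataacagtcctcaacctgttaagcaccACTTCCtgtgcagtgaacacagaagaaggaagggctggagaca
Ms4a6c, chr19:11469118-11469367, plus strand: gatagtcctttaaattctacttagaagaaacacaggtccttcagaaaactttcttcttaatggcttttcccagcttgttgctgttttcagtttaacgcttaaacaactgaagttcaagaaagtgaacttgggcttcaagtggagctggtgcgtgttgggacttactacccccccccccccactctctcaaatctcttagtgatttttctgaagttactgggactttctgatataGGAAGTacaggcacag
Ms4a3, chr19:11640852-11641101, minus strand: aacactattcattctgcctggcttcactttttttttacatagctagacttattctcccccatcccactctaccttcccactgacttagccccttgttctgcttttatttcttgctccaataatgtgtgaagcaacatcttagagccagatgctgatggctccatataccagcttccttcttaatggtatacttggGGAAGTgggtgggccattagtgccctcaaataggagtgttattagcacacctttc

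Promoter windows of 300 bases, with 50 bases after the start, were found for 7 of the 9 genes (not Ms4a1 and Ms4a6d), in 8 windows since Ms4a7 had 2. In a global alignment Ms4a4c and Ms4a4b had 225 of 300 bases in common (75%), and Ms4a6c and Ms4a6b had 192 (64%). The other 26 pairs of windows had 134 to 170 bases in common. The longest run of identical bases was 48 for Ms4a6c and Ms4a6b, ending at position -2 in Ms4a6c and at position -71 in Ms4a6b, and it includes a GGAAGT in both. For Ms4a4c and Ms4a4b the longest run was 20 bases, which ended at -19 and -22, and GGAAGT began at -15 in Ms4a4c and -19 in Ms4a4b. Each of these runs occurred in 2 of the 32851 promoter windows of the table.

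GGAAGT was present on either strand in 6 of the 8 windows, and in 23.8% of all windows of the table. Among the 6 are Ms4a4b with Ms4a4c and Ms4a6b with Ms4a6c, near copies that share sequence. Their matches are therefore not separate occurrences, and the 2 shares cannot be compared as such. Ms4a3 held GGAAGT at -55 and, outside the printed bases, on the other strand at 18 after the start. Ms4a6c likewise held a further match at 26 after the start. The windows without GGAAGT were that of Ms4a2 and 1 of the 2 of Ms4a7. The ETS-IRF composite motif with GAAA, any 2 bases and GGAA was found in 1 of the 8 windows (Ms4a7, at -93) and in 2.80% of all windows, and the one with GGAA, any 2 bases and GAAA in 0 of 8 and in 2.72% of all. The interferon response element, with GAAA, any 2 bases and GAAA, was in 0 of 8 and in 3.44% of all, and the C/EBP motif TTGCNNAA was in 1 (Ms4a3, at 42 after the start) and in 10.8% of all. Both strands were searched for each motif, and no matches overlapped. These are matches of letters in short windows and not measured sites.

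Ms4a transcripts divided into 3 kinds. The genes Ms4a4b, Ms4a4c, Ms4a6b, Ms4a6c and Ms4a6d had higher values on every CDP array than on every CMP array, and of these the difference of Ms4a4b passed the test. Ms4a3 was the opposite, lower on every CDP array, and passed. Ms4a1, Ms4a2 and Ms4a7 stayed below log2 5, the level used here for detection, on all arrays. Values are the authors' log2 expression values, in which 1 unit is a 2-fold step and 2.26 is the lowest value of the table.

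A probe set was tested when at least 2 arrays reached log2 5, and 9 of the 18 Ms4a probe sets, of 6 genes, did so. The test was limma's moderated linear model with Benjamini-Hochberg adjustment over all 16552 probe sets tested, with a threshold of 0.05. By it 1 Ms4a probe set was called higher in CDP, 1 was called lower and 7 did not pass, while 1.73% of all tested probe sets were called, 1.31% higher and 0.423% lower. On all 9 tested Ms4a probe sets the 3 CDP and the 2 CMP arrays did not overlap, as on 32.2% of all tested probe sets, and on 8 of the 9 CDP lay above CMP, as on 21.2% of all. As a description, the median difference of these 9 was 1.53, against 0.12 over all tested probe sets. Quantile normalization moved that median of all to 0.00 (9.12e-05), and under it the difference of Ms4a4b was 2.59 and that of Ms4a3 -2.79. One of the 9, the second probe set of Ms4a6c, passed the filter through CDP alone, so its direction follows from the filter. Its difference is itself the median of the 9, and Ms4a4c, Ms4a6b and Ms4a6c each enter that median with 2 probe sets. In sorted populations such as these, fewer cells that express a gene and less RNA per cell cannot be told apart.

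**Figure D1:**
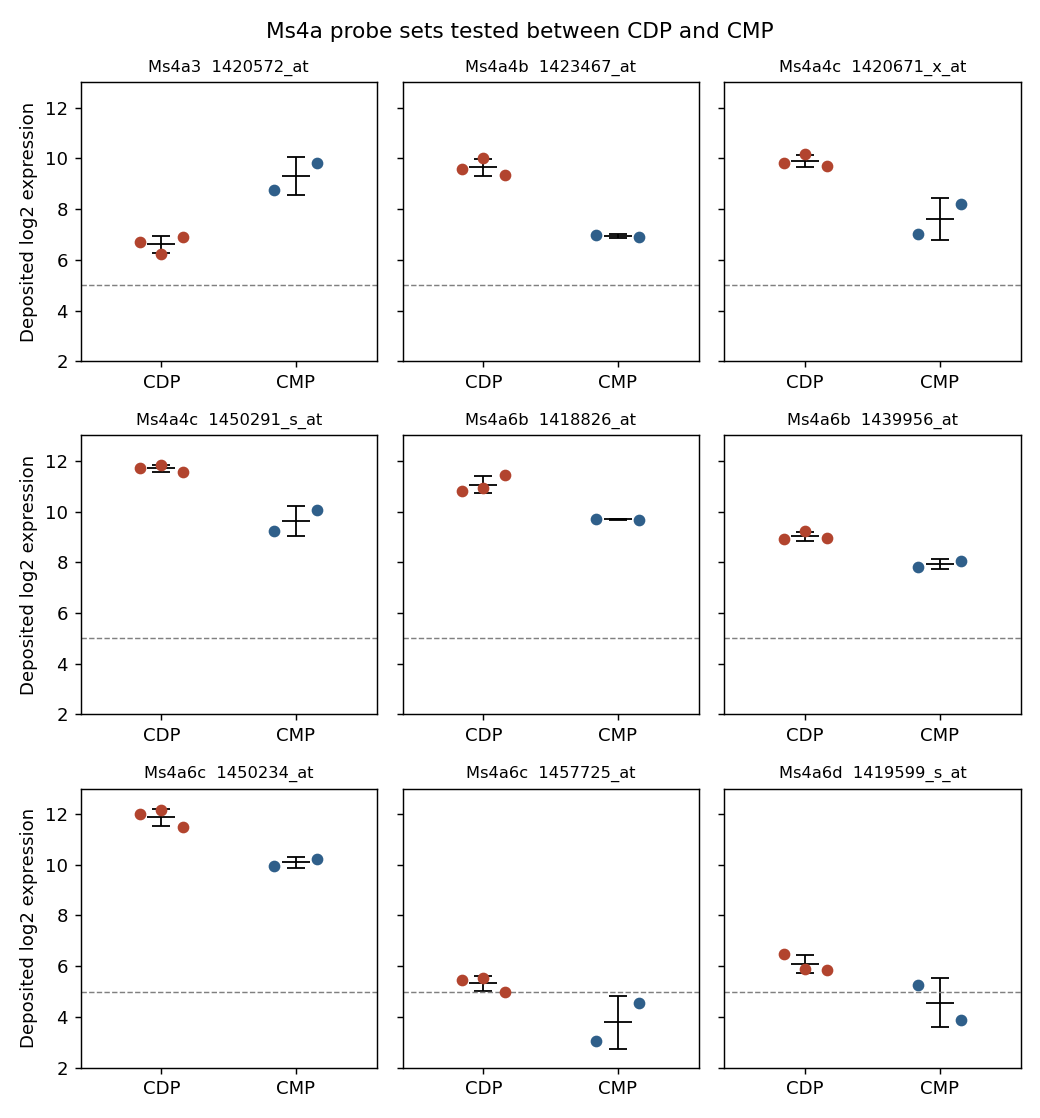
Deposited log2 expression (vertical axis) of the 9 tested Ms4a probe sets, with a point for each array of CDP (red, n = 3) and CMP (blue, n = 2), the mean as a bar and the SD as whiskers; the dashed line is log2 5. On 8 probe sets every CDP point lies above every CMP point, and for Ms4a3 every CDP point lies below.

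Ms4a4b, known in the mouse from T cells, where it restrains proliferation, was at 9.60, 10.01 and 9.36 (log2) on CDP 1, CDP 2 and CDP 3, against 6.995 and 6.89 on CMP 1 and CMP 2. The lowest CDP array lay 2.36 above the highest CMP array, and the 2 CMP arrays differed little. The means were 9.65 ± 0.33 in CDP (SD, n = 3) and 6.94 ± 0.07 in CMP (SD, n = 2), a difference of 2.71 ± 0.34 (SE), or 6.55-fold (limma, adjusted p = 0.0296). Ms4a4b was above detection on both CMP arrays too. A second Ms4a4b probe set was at 2.26 on all 5 arrays and adds no measurement.

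Ms4a4c, an interferon-inducible near copy of Ms4a4b, was measured by 2 probe sets that both differed in the same direction without passing. Its brighter one was at 11.73, 11.83 and 11.54 on the CDP arrays, against 9.22 and 10.04 on the CMP arrays. The groups did not overlap, and CMP 2 was the nearer of the CMP arrays to CDP. The difference was 2.07 ± 0.37, or 4.20-fold (limma, adjusted p = 0.0596). The other was at 9.81, 10.18 and 9.70 in CDP and at 7.04 and 8.19 in CMP, with a difference of 2.28 ± 0.44 (limma, adjusted p = 0.0728). The manufacturer's names mark both as probe sets that may match several transcripts, and cross-hybridization between Ms4a4c and its near copies was not tested.

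Ms4a6c, known from mouse monocytes, was at 11.99, 12.14 and 11.47 on its brighter probe set in CDP, against 9.94 and 10.24 in CMP. All 5 arrays were well above detection, and the groups lay 1.23 apart at their nearest arrays. The difference was 1.78 ± 0.35, or 3.42-fold, and did not pass (limma, adjusted p = 0.0791). Its dimmer probe set was at 5.46, 5.54 and 4.96 in CDP and at 3.05 and 4.54 in CMP, near or below detection, and gave 1.53 ± 0.51 (limma, adjusted p = 0.227), with 0.78 without CMP 1 and 2.27 without CMP 2.

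Ms4a6b, known from mouse T cells, was at 10.82, 10.92 and 11.43 in CDP on its brighter probe set, against 9.70 and 9.68 in CMP. The CMP arrays were almost equal and CDP 3 was the highest array. The difference was 1.37 ± 0.34, or 2.58-fold (limma, adjusted p = 0.129). A second probe set, at 8.91, 9.22 and 8.95 in CDP and at 7.80 and 8.06 in CMP, gave a similar 1.10 ± 0.31 (limma, adjusted p = 0.173). Neither passed.

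Ms4a6d, known from mouse macrophages, was near the detection level. Its tested probe set was at 6.49, 5.89 and 5.87 in CDP, against 5.24 and 3.88 in CMP, of which CMP 2 lay below detection. The difference of 1.52 ± 0.49 did not pass (limma, adjusted p = 0.217), and with values below log2 5 set to 5 CDP was at least 1.95-fold higher. The difference was 2.20 without CMP 1 and 0.84 without CMP 2. The manufacturer's name marks this probe set too as one that may match several transcripts, and Ms4a6d has no other tested probe set. A second probe set stayed below detection on every array, at 4.42, 4.81 and 4.28 in CDP and 2.62 and 2.69 in CMP, and another did not exceed 2.29.

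Ms4a3, whose product binds the cell cycle phosphatase encoded by Cdkn3, was at 6.71, 6.24 and 6.91 in CDP, against 8.76 and 9.83 in CMP. Every CDP array was lower than every CMP array, by at least 1.86. The means were 6.62 ± 0.34 in CDP (SD, n = 3) and 9.30 ± 0.75 in CMP (SD, n = 2), a difference of -2.68 ± 0.44 (SE), 6.39-fold lower in CDP (limma, adjusted p = 0.0491). Ms4a3 was still detected on all 3 CDP arrays. The call lies close to the threshold and ended in 11 of the 18 other settings tried, among them robust variance (adjusted p = 0.0524), an intensity trend (0.0515) and array weights (0.0584). It also ended when any 1 array was left out (adjusted p = 0.1005 to 0.239), with differences of -3.21 without CMP 1 and -2.14 without CMP 2.

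The call of Ms4a4b held in 11 of the 18 other settings. It ended without the filter on dim probe sets (adjusted p = 0.124), without CDP 1 and CMP 1 together, for a reason given next (0.0716), and when any 1 array was left out (adjusted p = 0.0695 to 0.167), where the difference stayed between 2.53 and 2.86. Leaving out 1 array left 44 called probe sets of all those tested without CDP 1, and 0 without each of the other arrays (limma; 1490 to 2766 of these had an unadjusted p under 0.05), against 287 with all 5.

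Of 7 genes of the sort gates, all tested, 1 rose in CDP, 1 fell and 5 did not pass. Kit, which encodes c-Kit, fell, at 7.75, 7.18 and 7.70 in CDP, against 10.04 and 10.20 in CMP, and Itgax, which encodes CD11c, rose, at 6.38, 7.51 and 7.78 in CDP, against 2.26 on both CMP arrays (limma, adjusted p = 0.0318 and 0.0155). Itgax entered the test through its CDP arrays alone, so its direction follows from the filter. Csf1r, which encodes CD115, was at 13.16, 12.94 and 12.95 in CDP and was still at 11.75 and 11.03 in CMP, a population sorted as CD115-negative (difference 1.63, limma, adjusted p = 0.0966). The arrays also differed in the level of a control probe set. The 5′ beta-actin control was at 6.54 on CDP 1 and 6.71 on CMP 1, against 12.97, 10.52 and 12.40 on CDP 2, CDP 3 and CMP 2. Both groups hold arrays of each kind. All 9 tested Ms4a differences had the same sign within each kind, which follows from the lack of overlap between CDP and CMP. The signs therefore cannot show whether the kind of array matters. Ms4a4b differed by 2.60 between CDP 1 and CMP 1 and by 2.79 between the mean of CDP 2 and CDP 3 and CMP 2. For Ms4a3 these differences were -2.05 and -3.25, and for the brighter Ms4a4c probe set they were 2.51 and 1.65. The dimmer Ms4a6c probe set moved most, with 2.41 and 0.71.

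With the kind of array as a block in the model, 6 Ms4a probe sets were called higher and 1 lower, but 1438 probe sets were called in all. The adjusted p-values (limma) were then 0.00724 for Ms4a4b, 0.0128 for Ms4a3, 0.0168 and 0.0175 for the probe sets of Ms4a4c, 0.0255 and 0.0982 for those of Ms4a6c, 0.0436 and 0.0584 for those of Ms4a6b and 0.0231 for Ms4a6d. The differences themselves changed by at most 0.16. Of the 18 other settings this block was the only one in which Ms4a6b and Ms4a6d passed. The brighter Ms4a4c probe set also passed with an intensity trend (limma, adjusted p = 0.0498) and with 1 probe set a gene (0.0399), and both Ms4a4c probe sets and the brighter one of Ms4a6c passed with the replicate number as a block.

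**Figure D2:**
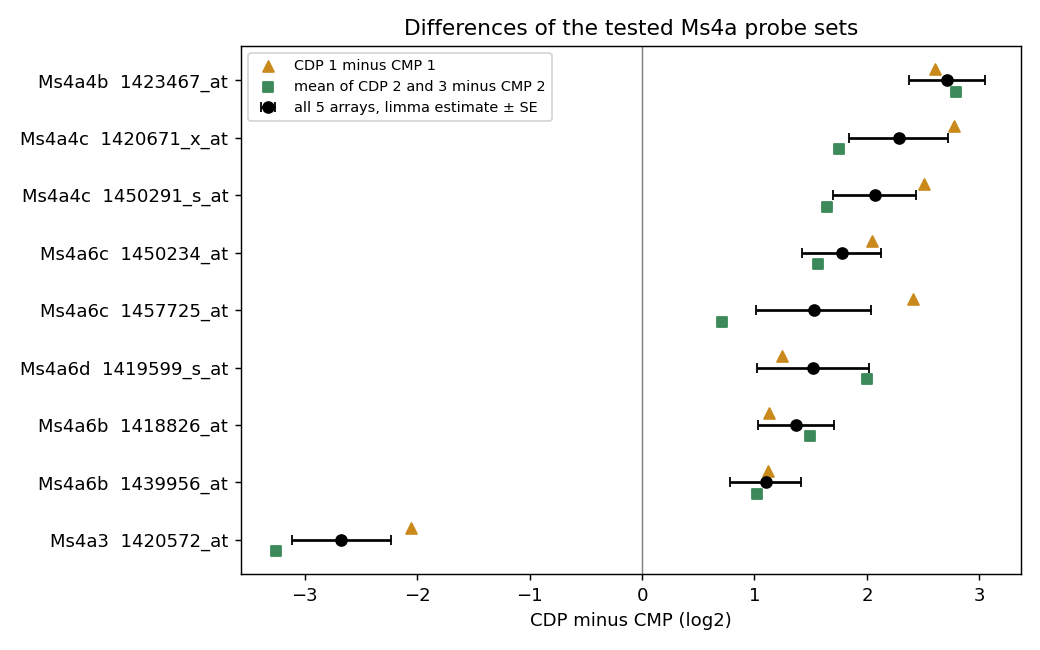
CDP minus CMP in log2 units (horizontal axis) for the 9 tested Ms4a probe sets, as the limma estimate from all 5 arrays with its SE (black), between CDP 1 and CMP 1 (triangles) and between the other arrays (squares). All markers of Ms4a3 lie below 0, at -2.68, -2.05 and -3.25, and all those of the other probe sets lie above 0. These signs follow from the lack of overlap between the CDP and CMP arrays.

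Ms4a1, the gene of the B cell antigen CD20, was at 2.26, 4.06 and 2.35 on one probe set in CDP and at 2.26 on both CMP arrays, and at 2.26, 3.07 and 2.26 on the other in CDP and at 2.26 on both CMP arrays. It was above the lowest value on CDP 2 without reaching detection. On CDP 2 alone, 7 of 8 neutrophil markers with a probe set were also detected, S100a8 at 12.52, and their summed signal on the linear scale was 16366, with 52.2 on CDP 1 and 49.9 on CDP 3, against 70.7 and 65.8 on CMP 1 and CMP 2. Of 4 erythroid markers with a probe set Alas2, a heme synthesis enzyme of red cell precursors, was likewise detected on CDP 2 alone, at 8.80, and was at 2.26 on each other array. Their part in the Ms4a results was not tested. Without CDP 2 the differences of Ms4a4b and Ms4a3 were 2.53 and -2.49, and neither passed (limma, adjusted p = 0.1671 and 0.2315).

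Ms4a2 was at its lowest values on every array on one probe set, and on the other at 2.26 on the CDP arrays, at 3.50 on CMP 1 and at 2.26 on CMP 2. Fcer1a, the alpha chain of the same IgE receptor, was at 2.26 on all 5 arrays, so neither of the chains that set this receptor apart was detected. Fcer1g, the gamma chain that many other receptors share, was at 8.70, 9.54 and 9.54 in CDP, against 6.66 and 7.09 in CMP. Its groups did not overlap, and the difference of 2.38 ± 0.40 missed the threshold (limma, adjusted p = 0.0525). Of 11 genes of the IgE receptor and its signalling with a probe set, 9 were tested, none was called higher or lower by limma (2 had an unadjusted p under 0.05), and their median difference was 0.19, against 0.12 over all tested probe sets.

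Ms4a2, which was not detected, stood beside other mast cell and basophil genes that were present in CMP. Cpa3, a mast cell protease, was at 2.26 on all CDP arrays, against 8.76 and 6.25 on the CMP arrays, and Hdc, which makes histamine, was at 4.55, 5.42 and 4.55 in CDP, against 10.29 and 8.93 in CMP. Cpa3 entered the test through its CMP arrays alone, so its direction follows from the filter (limma, adjusted p = 0.0346). Hdc fell in CDP (limma, adjusted p = 0.0217), as did Gata2 (0.0349), and Mcpt8, a basophil protease, was at -1.97 ± 0.34 without passing (limma, adjusted p = 0.0558). Of the 8 markers of these cells with a probe set, the 4 others (Fcer1a, Cma1, Mcpt4 and Tpsb2) lay between 2.26 and 2.27 on all arrays.

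Ms4a7 was at 2.29 on all arrays on one probe set and at 2.26 on the other. Of 10 monocyte and macrophage markers with a probe set, 4 did not enter the test (Mertk, C1qa, C1qb and Fcgr1), with Mertk at 2.28 and C1qa at 2.26 on all arrays. The other 6 had positive differences, and 2 of them rose in CDP. Ccr2, a chemokine receptor of monocytes, was at 10.55, 10.98 and 10.89 in CDP, against 8.89 and 8.72 in CMP (limma, adjusted p = 0.0456), and Cx3cr1 was at 10.20, 10.09 and 9.10 in CDP, against 7.17 and 6.96 in CMP (limma, adjusted p = 0.0456). Adgre1, an adhesion receptor of macrophages, was at 5.80, 5.82 and 5.41 in CDP, against 4.60 and 3.88 in CMP, and did not pass (limma, adjusted p = 0.140). It entered the test through its CDP arrays alone, so its direction follows from the filter. Cd14 and Cd68 were detected on every CDP array and on CMP 2, and did not pass either (limma, adjusted p = 0.360 and 0.760). Csf1r, which encodes CD115 of the sort gates, was the brightest of the 10 markers on every array and weighs most in their sum. It was at 13.16, 12.94 and 12.95 in CDP, against 11.75 and 11.03 in CMP. The summed linear signal of the 10 markers ran from 10746 to 11951 on the CDP arrays and from 2871 to 4137 on the CMP arrays, in the direction of the Ms4a4 and Ms4a6 genes. The sum of 9 dendritic cell markers lay the same way, from 2021 to 2398 on the CDP arrays, against 988 and 1115 on the CMP arrays. Flt3, also among the genes of the sort gates, was the brightest of these 9 on every array. The part of either sum in the differences of these Ms4a genes was not tested.

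Markers of T and NK cells, in which Ms4a4b and Ms4a6b are known, were not detected. Cd3e, Cd3g, Ncr1 and Gzma were at 2.26 on all 5 arrays, and Cd247 did not exceed 2.41. Their summed linear signal over 5 genes was 23.9 on each CDP array, against 24.4 and 23.9 on the CMP arrays.

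Ms4a1 belongs with the B cell receptor partners of CD20, of which 9 had a probe set and 5 were tested, with none called higher or lower by limma (3 had an unadjusted p under 0.05). Their median difference was 0.75, against 0.12 over all tested probe sets. Cd22, an inhibitory receptor, was at 5.09, 6.81 and 7.14 in CDP, against 2.63 and 2.65 in CMP, and Cd79b, a signalling chain of the B cell receptor, was at 7.12, 8.13 and 8.07 in CDP, against 5.96 and 6.96 in CMP. Cd81, which encodes a tetraspanin, lay the other way, at 7.02, 7.36 and 8.18 in CDP, against 9.39 and 9.73 in CMP. None of these passed (limma, adjusted p = 0.0556, 0.272 and 0.0950), and Cd22 entered the test through its CDP arrays alone, so its direction follows from the filter. The B cell list had 8 markers on the array, of which 3 entered the test and none passed in limma (all 3 had an unadjusted p under 0.05). Vpreb1, a part of the surrogate light chain of early B cells, was at 5.97, 6.08 and 6.29 in CDP, against 4.96 and 3.45 in CMP (limma, adjusted p = 0.145). Like Cd22, which is also among these 3, Vpreb1 entered the test through its CDP arrays alone. The direction of both follows from the filter. Cd79a was at 2.26 on all arrays, Pax5 did not exceed 2.42, and Blnk reached detection on CDP 2 alone, at 5.43. The summed linear signal of the 8 markers ran from 295.8 to 568.3 on the CDP arrays and from 142.3 to 177.4 on the CMP arrays, in the direction of the Ms4a4 and Ms4a6 genes, and its part in their differences was not tested.

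For Ms4a3 the comparison with other genes of granulocyte and monocyte progenitors showed unequal sizes. Of 6 such genes with a probe set, 5 were tested, all with negative differences and none passing in limma (2 had an unadjusted p under 0.05), and the median difference was -0.58. Mpo, the myeloperoxidase of primary granules, was at 14.26, 14.21 and 14.61 in CDP, against 14.83 and 15.04 in CMP, a difference of -0.58 ± 0.32 (limma, adjusted p = 0.446). Gfi1, a repressor needed for neutrophil formation, was at 7.43, 5.59 and 6.52 in CDP, against 10.02 and 9.40 in CMP, a difference of -3.20 ± 0.59 (limma, adjusted p = 0.0628). Ctsg and Prtn3, 2 proteases of primary granules, were at -0.91 ± 0.31 and -0.36 ± 0.32, neither past the threshold. Elane was detected on CMP 2 alone, at 7.38. The summed linear signal of these 6 genes ran from 36427 to 45834 in CDP and from 59603 to 68842 in CMP, and its part in the difference of Ms4a3 was not tested.

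**Figure D3:**
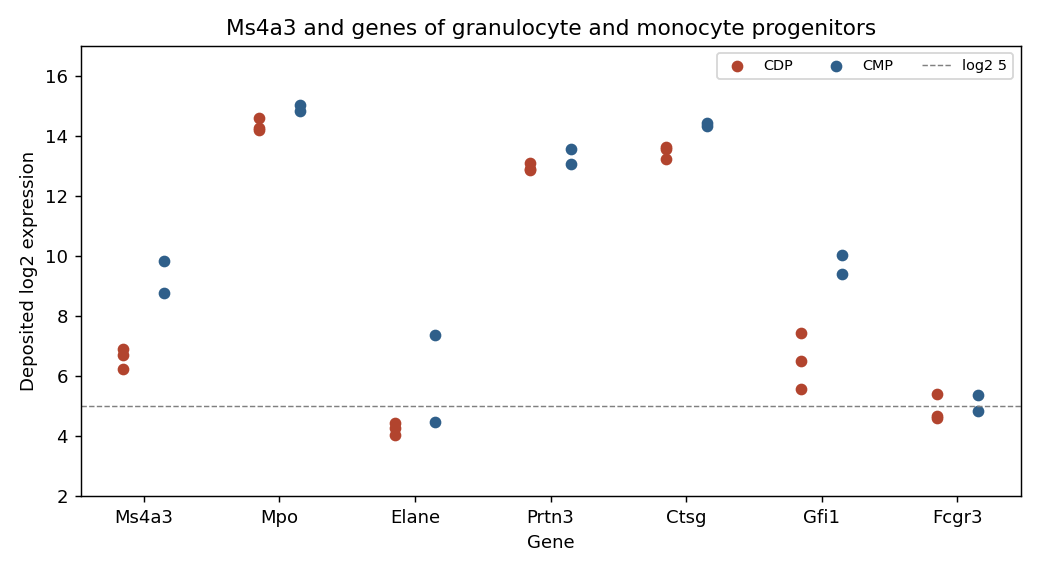
Deposited log2 expression (vertical axis) of Ms4a3 and the 6 genes of granulocyte and monocyte progenitors with a probe set (horizontal axis), a point for each CDP array (red) and CMP array (blue), with log2 5 dashed. Ms4a3 and Gfi1 show wide gaps between the groups, whose means differ by -2.68 and -3.20, while Mpo, Prtn3 and Ctsg lie closer together. Levels are not comparable between probe sets.

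Cdkn3, the partner of the Ms4a3 protein, moved the other way in value, at 7.16, 7.98 and 7.95 in CDP, against 4.60 and 5.56 in CMP. Its difference of 2.62 ± 0.45 did not pass (limma, adjusted p = 0.0557). Of the cell cycle genes listed with it, Cdk1, Cdk2 and Ccna2 were tested too, all with positive differences (0.68, 1.43 and 0.79), and none passed in limma, while 2 of the 4 had an unadjusted p under 0.05.

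The 9 genes lie in 1 cluster on chromosome 19 with 12 further Ms4a genes. In the order of the RefSeq annotation, the 6 detected genes stand among the last 8 Ms4a genes, in a row that reads Ms4a4c, Ms4a4b, Ms4a6c, Gm8369, Ms4a6b, Ms4a4d, Ms4a6d, Ms4a2 and Ms4a3. The detected genes were thus interrupted by Ms4a4d, Ms4a2 and Gm8369, none of which reached detection. Of the 12 further Ms4a genes, 8 had a probe set named by their symbol alone, and these 8 lay between 2.26 and 2.30 on all arrays.

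Beside the cluster, 5 named genes on each side were examined. Of these 10, 4 were tested and none passed in limma (1 had an unadjusted p under 0.05). Tmem109, at 12.29, 11.84 and 12.67 in CDP and 10.63 and 9.85 in CMP, gave 2.03 ± 0.42 (limma, adjusted p = 0.0847), while Prpf19, Ccdc86 and Mrpl16 were at -0.35 ± 0.38, 0.21 ± 0.74 and 0.11 ± 0.57. Their median was 0.16, against 0.12 over all tested probe sets. On another chromosome the more distant relatives Tmem176a and Tmem176b, of which CDP and CMP overlapped, were at 0.06 ± 0.33 and -0.45 ± 0.69 (limma, adjusted p = 0.955 and 0.819).

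**Figure D4:**
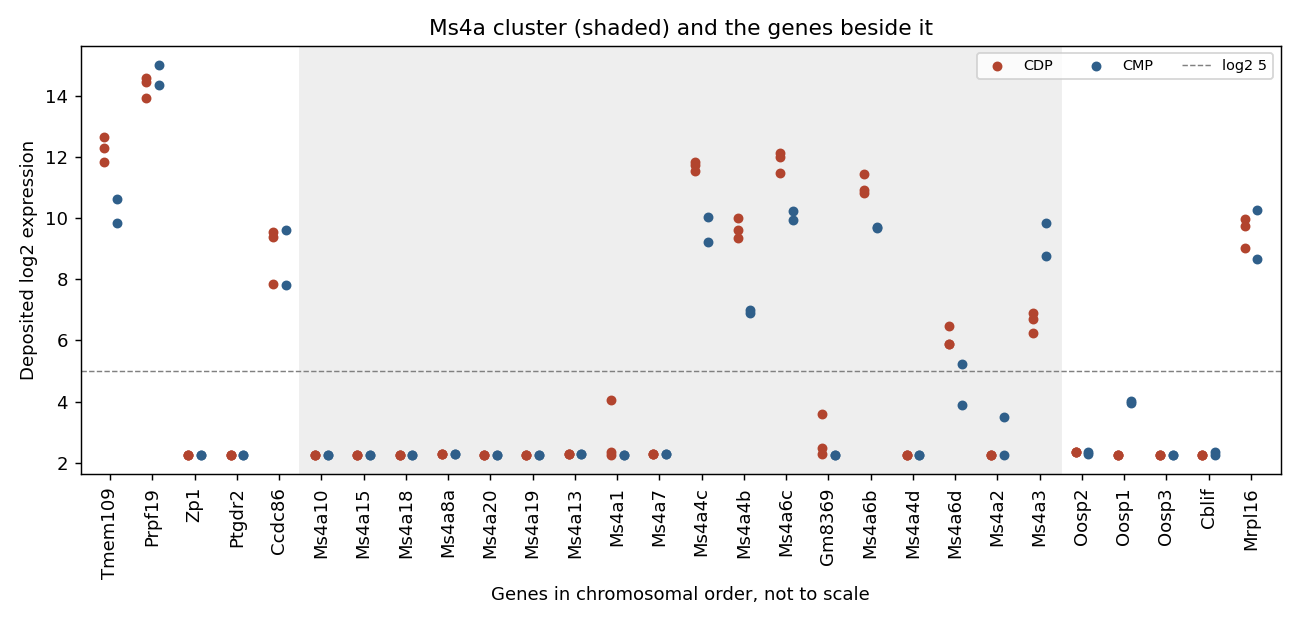
Deposited log2 expression (vertical axis) of the brightest probe set of each gene in the order of the genes along the chromosome (horizontal axis, not to scale), for CDP (red) and CMP (blue) arrays, with the Ms4a cluster shaded and log2 5 dashed. Values above log2 5 within the shaded part occur in Ms4a4c, Ms4a4b, Ms4a6c, Ms4a6b, Ms4a6d and Ms4a3 only; levels are not comparable between probe sets.

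The genes with the most similar course over the 5 arrays were found by the root mean square difference between log2 values, each probe set centred on its own mean. Nearest to Ms4a4b, over the 5 arrays, were Il13ra1, a chain of the IL-13 receptor (0.18), and Ctnna1, which encodes alpha-catenin (0.19). Ctnna1 was at 13.69, 14.11 and 13.62 in CDP, against 11.57 and 11.31 in CMP. Mpeg1, which encodes the phagocyte pore protein perforin-2, was the second nearest to the dimmer Ms4a4c probe set (0.12), at 13.31, 13.81 and 13.26 in CDP, against 10.31 and 11.67 in CMP. Acer3, a ceramidase gene, was the nearest to its brighter probe set (0.085). The transcription factor gene Klf4 was the second nearest to the brighter Ms4a6c probe set (0.14), at 13.67, 13.76 and 13.31 in CDP, against 11.47 and 12.17 in CMP.

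Nearest to Ms4a3 was Ldhb, a lactate dehydrogenase subunit (0.18), at 5.13, 4.88 and 5.03 in CDP, against 7.25 and 8.11 in CMP. Atxn1 followed (0.29). For the brighter Ms4a6b probe set it was Trak1 (0.046), and for Ms4a6d it was Ublcp1 (0.11). These neighbours were selected for likeness among 16552 probe sets, so their own differences carry no further support. Within the family, the brighter probe sets of Ms4a4c and Ms4a6c were 0.25 apart, Ms4a4b and the brighter one of Ms4a4c 0.45 apart, and Ms4a3 was between 1.89 and 2.70 from every other tested Ms4a probe set.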

How the data were processed

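The deposited table holds log2 expression values for 45037 probe sets and 64 manufacturer's controls on 5 arrays. Per the submitters' processing notes the authors made these values with GCRMA, a method with a sequence-based background model and quantile normalization, whose version the sources used here do not give. Groups come from the sample titles. That of CDP 3 starts with CM in place of BM, but its tissue and cell type labels are those of the other CDP arrays. The number of arrays limits the precision.

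The values were used as deposited. Probe sets with at least 2 arrays at log2 5 (16552) entered limma 3.58.1 under R 4.3.3 (lmFit, then eBayes, 3 residual and 3.14 prior degrees of freedom), with 2-sided p-values under Benjamini-Hochberg adjustment. Each difference is CDP minus CMP, given with its standard error. Folds are bounds, with values below 5 set to 5, where the dimmer group has an array below that level. The fit was tested on simulated data. For genes of the lists and neighbours on the chromosome the tested probe set with the highest mean was used. Where none was tested, it was the probe set with the highest mean. Genes nearest in course are given on the probe set nearest to that of the Ms4a gene. All Ms4a probe sets are named, with genes of the lists, neighbours on the chromosome and some of the 3 genes nearest in course to each tested probe set. The members and lists were chosen with earlier results of these data known. Promoters came from a RefSeq table of GRCm38.p6 and were aligned with Biopython 1.88. Alternatives were other scaling, filters, variance models, weights and blocks, fewer probe sets and leaving out arrays.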

Additional observations from a re-analysis of the deposited data

How the results depend on the processing

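All 151 alternative values of the 9 tested Ms4a probe sets kept the sign of their difference. Since CDP and CMP did not overlap on these probe sets, only the settings that rescaled the values could have changed a sign. Of the 151 values, 123 kept their side of the threshold, 18 lost a call (Ms4a3 and Ms4a4b) and 10 gained one. The counts of Ms4a probe sets called higher and lower, 1 and 1 as reported, and the 287 probe sets called in all, became 0, 0 and 55 without the filter, where 8 of 18 Ms4a probe sets had an unadjusted p under 0.05. They became 6, 1 and 1438 with the arrays low in 5′ beta-actin as a block. The intensity trend gave 2 higher and 0 lower, 1 probe set a gene gave 2 higher, and the filter at log2 4, robust variance and array weights gave 0 lower. Leaving out 1 array gave 0 to 0 higher, 0 to 0 lower and 0 to 44 in all, with 7 to 9 Ms4a probe sets at an unadjusted p under 0.05 in limma; where 1 CMP array was left, it was assumed to vary like CDP. Leaving out both arrays low in 5′ signal, chosen after seeing the data, gave 0, 0 and 0 (limma), with 8 Ms4a probe sets at an unadjusted p under 0.05. With the replicate number as a block 4 Ms4a probe sets were called higher, 1 lower and 608 in all. Those gained were Ms4a4c (adjusted p = 0.0385 and 0.0321) and the brighter Ms4a6c probe set (0.0377). Deviations from the group means correlated at 0.61 for the arrays numbered 1 and 0.58 for those numbered 2. The deviations of the 2 CMP arrays mirror each other, so these are not separate results. CDP 3 correlated at 0.33 with CMP 2, and CDP 1 and CMP 1 are also the arrays low in 5′ beta-actin. Whether arrays of the same number share something was not tested. No label says that a number pairs arrays and both groups share only 2 numbers, so the reported fit has no block. The cause of these changes was not tested. The signal near background limits the dimmer Ms4a6c probe set and Ms4a6d.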
